A study of Mus musculus with 40 samples.

Results

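The nuclear-encoded subunits of the mitochondrial respiratory chain were taken as the genes whose symbols begin with Ndufa, Ndufb, Ndufc, Ndufs or Ndufv and a digit, with Uqcr, with Cox4 to Cox8 or with Atp5, together with Ndufab1, Sdha, Sdhb, Sdhc, Sdhd, Cyc1 and Cycs. Names with -ps, which marks pseudogenes, were left out. The rule found 92 of the 55401 genes of the count table, with 39 in complex I, 4 in complex II, 9 in complex III, 21 in complex IV, 18 in complex V and 1 for cytochrome c. They were measured by RNA sequencing of renal cortex from 40 male mice on the C57BL/6J background, 5 in each of 8 groups. Ins2-Akita heterozygous mice carry a mutated copy of an insulin gene and become diabetic, and WT mice were their littermates. In the ethanol arm, mice of both genotypes received either the vehicle of 10% ethanol or MitoGamide, a compound directed to mitochondria that scavenges reactive dicarbonyls, at 10 mg/kg by daily gavage from 6 to 22 weeks of age. In the water arm, mice of both genotypes received either water or MitoQ, an antioxidant directed to mitochondria, over the same ages. The dose of MitoQ was not given in the sources used here. Each library came from the cortex of 1 animal, and in such bulk samples fewer cells of a type and less RNA per cell cannot be told apart.

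The respiratory chain sits in the inner mitochondrial membrane. Complex I takes electrons from NADH and complex II from succinate, complex III passes them by way of cytochrome c to complex IV, which reduces oxygen, and complex V, the ATP synthase, uses the resulting proton gradient to make ATP. Most subunits are encoded in the nucleus and some in mitochondrial DNA, and the proximal tubule, which fills most of the renal cortex, depends on this pathway for the transport of sodium and glucose.

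Libraries held between 9106654 and 24321424 counts. The share of counts on ribosomal RNA genes (mt-Rnr1, mt-Rnr2 and CT010467.1) was 15.2 to 27.4% in the ethanol arm and 10.7 to 63.2% in the water arm, where it was over 30% in 6 libraries (WT water replicates 3 and 4, Akita water replicates 2 and 5, WT MitoQ replicate 3 and Akita MitoQ replicate 2). The members together took 0.978 to 1.35% of the counts in the ethanol arm and 0.203 to 1.3% in the water arm, with the lowest share in WT MitoQ replicate 3. The members' counts of calls and medians in the comparisons that hold these 6 libraries are therefore also given without them, whereas the fit of the water arm alone, levels, sums by complex, tests of a difference between contrasts and the gene lists use all libraries. The labelled tissue was checked with 8 genes of the proximal tubule, all of which were detected in all 40 libraries. Brown fat markers (Ucp1, Cidea and Adipoq) summed to 17.1 CPM (counts scaled to a common library total) in WT water replicate 1 and 8.19 in WT MitoQ replicate 4, and to at most 2.6 CPM in the other libraries. White fat markers (Adipoq, Plin1 and Lep) reached 5.88 CPM on water and 3.49 on MitoQ in WT mice, and 3.1 on water and 4.22 on MitoQ in Akita mice, against at most 1.02 CPM in any library of the ethanol arm. The inner medulla markers Aqp4 and Slc14a2 reached 51.6 CPM on water and 46.5 on MitoQ in WT mice, and at most 19.2 CPM in the ethanol arm.

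**Figure D1:**
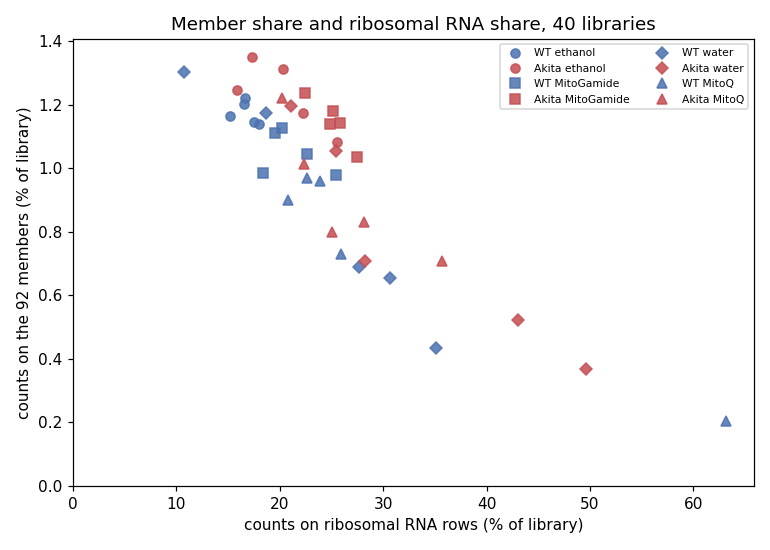
Share of each library's counts on the 92 members (vertical axis, percent) against its share on ribosomal RNA genes (horizontal axis, percent), 1 point for each of the 40 libraries, with WT in blue, Akita in red and a marker shape for each treatment. The 20 libraries of the ethanol arm lie between 0.978 and 1.35%, and those of the water arm spread down to 0.203%.

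Of the 6 members called between genotypes in the joint fit of the 4 treatments (Cox6b2, Ndufa5, Uqcrq, Ndufa7, Cox5b and Atp5g1), 5 had a promoter window in the RefSeq table used here. These windows are shown because the genes are those called over the 4 treatments. Each runs from 250 bases before the annotated start to 50 after it, 5′ to 3′ on the gene's strand, on GRCm38.p6. Capitals mark a match to TGCGCANGC (the core recognised by NRF1, a regulator of respiratory genes), CCGGAAGT (a site of ETS factors such as GABPA, also named NRF2), TCAAGGTCA (a site of oestrogen-related receptors) or TATAAA, each searched on both strands. The windows lie at chr7:4753045-4753344 on the minus strand for Cox6b2, chr6:24527641-24527940 on the minus strand for Ndufa5, chr17:33824322-33824621 on the plus strand for Ndufa7, chr1:36691237-36691536 on the plus strand for Cox5b and chr11:96075582-96075881 on the minus strand for Atp5g1.
Cox6b2: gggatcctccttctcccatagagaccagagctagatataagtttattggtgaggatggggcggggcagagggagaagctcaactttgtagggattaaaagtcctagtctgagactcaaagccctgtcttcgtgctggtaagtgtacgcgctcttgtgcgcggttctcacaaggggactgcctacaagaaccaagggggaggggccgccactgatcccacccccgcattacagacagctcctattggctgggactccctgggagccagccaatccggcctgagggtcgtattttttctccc
Ndufa5: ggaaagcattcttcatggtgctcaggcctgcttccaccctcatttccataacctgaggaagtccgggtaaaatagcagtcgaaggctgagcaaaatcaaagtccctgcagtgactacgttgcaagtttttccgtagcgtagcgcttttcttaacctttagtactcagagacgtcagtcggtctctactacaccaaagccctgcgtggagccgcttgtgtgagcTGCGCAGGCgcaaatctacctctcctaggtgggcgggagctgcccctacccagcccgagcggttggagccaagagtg
Ndufa7: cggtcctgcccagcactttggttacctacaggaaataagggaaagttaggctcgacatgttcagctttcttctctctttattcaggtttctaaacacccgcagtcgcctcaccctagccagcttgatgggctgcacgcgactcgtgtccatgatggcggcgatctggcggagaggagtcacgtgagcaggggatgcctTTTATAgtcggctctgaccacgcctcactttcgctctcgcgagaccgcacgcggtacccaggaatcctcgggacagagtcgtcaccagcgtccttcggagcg
Cox5b: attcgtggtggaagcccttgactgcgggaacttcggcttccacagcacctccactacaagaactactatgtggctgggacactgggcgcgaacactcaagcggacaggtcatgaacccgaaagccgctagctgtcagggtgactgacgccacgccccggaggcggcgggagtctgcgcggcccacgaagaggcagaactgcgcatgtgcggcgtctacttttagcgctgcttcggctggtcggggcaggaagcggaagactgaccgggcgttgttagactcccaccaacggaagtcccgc
Atp5g1: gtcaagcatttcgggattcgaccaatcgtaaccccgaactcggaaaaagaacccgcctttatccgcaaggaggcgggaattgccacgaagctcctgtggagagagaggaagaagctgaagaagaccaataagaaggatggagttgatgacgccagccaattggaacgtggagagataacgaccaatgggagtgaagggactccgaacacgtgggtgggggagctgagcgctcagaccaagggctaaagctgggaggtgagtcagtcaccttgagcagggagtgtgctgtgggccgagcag

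The letters TGCGCANGC were found in the windows of 12 of the 71 members matched (16.9%) and in 4.16% of all 32851 windows in the table. For each member the window nearest to the gene start in GENCODE was taken, and 5 members, among them Ndufa5 and Ndufa7, had a second window that was not used. CCGGAAGT was found in 5 member windows (7.04%) and 3.89% of all windows, TCAAGGTCA in 2 (2.82%) and 0.423%, and TATAAA in 8 (11.3%) and 13.6%. Among the windows shown, Ndufa5 held the first set of letters and Ndufa7 the TATAAA letters on the reverse strand. Cox6b2, Cox5b and Atp5g1 held none of them, which says only that these letters are not in these windows. The Cox6b2 window held 10 CpG dinucleotides, against a median of 19 over the member windows and 7 over all windows. TGCGCANGC and CCGGAAGT each contain a CpG, and the part of CpG content in their shares was not tested.

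Levels of different genes were compared per transcript length, as TPM (counts divided by transcript length and scaled to the same total in each library, computed here), in the WT mice on ethanol (mean ± SD, n = 5). Complex V held the most abundant member, Atp5b, the catalytic beta subunit, at 1105 ± 41.9 TPM, followed in that complex by Atp5a1, the alpha subunit, at 573.6 ± 17.9. Of the genes for subunit c of the ATP synthase ring, Atp5g3 was at 315.6 ± 19.1, Atp5g1 at 56.8 ± 2.3 and Atp5g2 at 13.8 ± 5.36 TPM. In complex IV, Cox4i1 was highest at 514.1 ± 31.1, and Ndufa4, once assigned to complex I and now placed in complex IV, was at 412.5 ± 24.8. In complex III the highest was Uqcr10 at 299.5 ± 12.2, and Cyc1, which encodes cytochrome c1, was lowest at 120.1 ± 5.81. The complex II genes ranged from Sdhc, a membrane anchor, at 56.6 ± 2.63 to Sdhb, the iron-sulphur subunit, at 207.9 ± 8.89, with the flavoprotein Sdha at 201.8 ± 7.67 and the anchor Sdhd at 134.3 ± 6.39. In complex I, Ndufb9 was highest at 204.8 ± 10.9 and Ndufb2 lowest among the members tested at 16.9 ± 1.16. Cycs was at 27.8 ± 2.68 TPM. These orders depend on the 1 annotated length taken per gene, such as 2413 bases for Ndufb2, 2676 for Atp5g1 and 3171 for Sdhc. Before division by length, Ndufb2 was at 32.15 CPM against 26.7 for Ndufb3, and Sdhc at 142.3 against 130.7 for Sdhd. Atp5g1 was at 120.5 CPM against 179.2 for Atp5g3.

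Isoforms known from muscle, testis or lung were low or near 0. Cox7a1, the heart and muscle partner of Cox7a2, was at 14.1 ± 1.88 TPM against 199.8 ± 16.6 for Cox7a2 and 70.4 ± 8.53 for Cox7a2l. Cox6b2, the testis partner of Cox6b1, was at 4.56 ± 1.34 against 406.2 ± 19.9, Cox6a2, the muscle partner of Cox6a1, at 1.26 ± 0.274 against 408.6 ± 29.5, and Ndufa4l2, induced by hypoxia in many cells, at 1.84 ± 0.421 TPM. Cox4i2 had at most 8 counts in any library. Cox8b, the muscle partner of Cox8a, had 13 counts in WT water replicate 1 and 8 in WT MitoQ replicate 4, the 2 libraries with the highest brown fat markers, and at most 4 in the others. Cox8c had 0 counts in all 40 libraries, which allows up to 3 counts in each. In all, 9 members had a mean under 10 counts over the 40 libraries (Ndufa11b, Ndufs6b, Cox4i2, Cox6a2, Cox6c2, Cox7b2, Cox8b, Cox8c and the second Atp5o gene), and 83 were tested there. Ndufa11b, Ndufs6b, Cox6c2 and Ndufb4c are annotated as processed pseudogenes, of which only Ndufb4c passed the filter.

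Reads could be divided between members and copies of them. In GENCODE mouse release 21, 3 members had over 50% of their 31-base words in transcripts of other genes (Ndufb4c, the second Atp5o gene and Cox6c2), and the median over the members was 6.44%. This release is older than the one the authors used for the counts. Ndufb4 shared 19.1% with Ndufb4c, which in turn shared 100% with Ndufb4. Cycs shared 26.2% with Gm10053, and the main Atp5o gene shared 49.6% with 4 other genes. For Cox6b2, Uqcrq, Ndufv2 and Sdhd this share was 0%, for Ndufa5 0.97%, for Ndufa7 3.99%, for Cox7b 6.94%, for Atp5g1 14.1% and for Cox5b 16.1%. Exons of 32 members overlapped those of another gene, none of them among the 10 genes whose values by library are given here.

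The summed level of each complex was set on 1 scale for all 40 libraries (CPM after TMM scaling, mean ± SD, n = 5). Complex I was at 2749 ± 137 in WT and 2872 ± 214 in Akita mice on ethanol, 2642 ± 163 and 2983 ± 82.4 on MitoGamide, 1980 ± 721 and 1935 ± 645 on water, and 1871 ± 508 and 2101 ± 522 on MitoQ. On MitoGamide the 5 Akita libraries (2906.8 to 3078.6) all lay above the 5 WT libraries (2373.5 to 2769), whereas the genotypes overlapped in the other 3 treatments. Complex II was at 924.1 ± 44.5 and 956.8 ± 54 on ethanol, 892.3 ± 56 and 962.2 ± 27.9 on MitoGamide, 640.4 ± 260 and 637.7 ± 257 on water, and 608.2 ± 192 and 700.1 ± 184 on MitoQ, and its genotypes overlapped in all 4. Complex III was at 1250 ± 60.2 and 1348 ± 103 on ethanol, 1170 ± 91.8 and 1359 ± 30.9 on MitoGamide, 937.8 ± 306 and 911.7 ± 280 on water, and 855.6 ± 233 and 978.3 ± 237 on MitoQ. Complex IV was at 1693 ± 102 and 1868 ± 163 on ethanol, 1615 ± 109 and 1890 ± 57.1 on MitoGamide, 1162 ± 494 and 1210 ± 471 on water, and 1086 ± 298 and 1282 ± 378 on MitoQ. For complexes III and IV, the Akita libraries on MitoGamide lay above all WT libraries on MitoGamide, and the genotypes overlapped elsewhere. For complex V the same held, at 4485 ± 242 and 4778 ± 375 on ethanol, 4299 ± 286 and 4830 ± 170 on MitoGamide, 3278 ± 1360 and 3161 ± 1200 on water, and 2999 ± 950 and 3414 ± 902 on MitoQ.

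**Figure D2:**
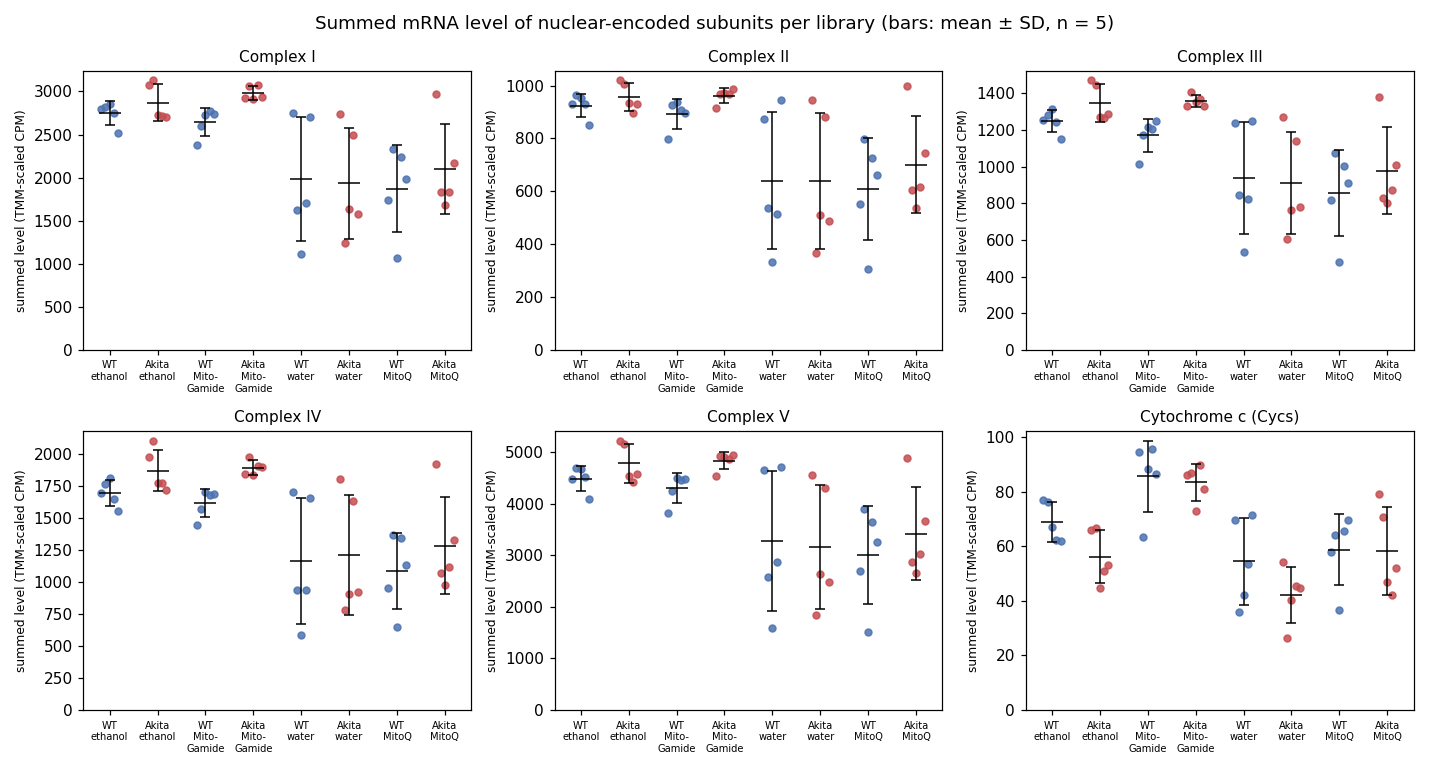
Summed level of the members of each complex, and of Cycs in the last panel (vertical axes, TMM-scaled CPM) in the 8 groups, with 1 point per library, WT in blue, Akita in red, and the mean ± SD of 5 libraries in black. Complexes I to V show a narrower spread in the 4 ethanol-arm groups than in the 4 water-arm groups.

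Proportions between complexes were taken from the same sums. Complex I made up 24.2 to 25.2% of the summed level as a mean of each group, complex II 7.93 to 8.34%, complex III 10.9 to 11.9%, complex IV 14.3 to 15.7% and complex V 39.8 to 40.3%. Cytochrome c ranged more widely, from 0.47% in Akita mice on ethanol to 0.805% in WT mice on MitoQ. The complex IV share was 14.9 to 15.2% in WT and 15.3 to 15.9% in Akita mice on MitoGamide, without overlap, whereas on ethanol (14.7 to 15.5% and 15.3 to 16.3%) the groups overlapped. The mean log2 level over all members had an SD between libraries of 0.07 in WT mice on ethanol, 0.11 in Akita mice on ethanol, 0.55 in WT mice on water and 0.48 in Akita mice on water.

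Diabetes on the ethanol vehicle was compared first. Of 84 members tested, 11 were higher in Akita than in WT mice and 0 lower (13.1%, against 16.4% of all 17747 genes tested, of which 8.18% were called higher and 8.22% lower). The median log2 fold change was 0.12 over the members and 0.00 over all genes tested. Called members came from complex I (Ndufa5, Ndufa7, Ndufs7, Ndufa11 and Ndufa6), complex III (Cyc1), complex IV (Cox6b2, Cox6c, Cox5b and Cox7a2) and complex V (Atp5g1), whereas complex II and Cycs had none. Apart from Cox6b2 their log2 fold changes were between 0.19 and 0.37. The groups did not overlap for 13 members, all higher in Akita mice, against 12.7% of all genes tested. Leaving out Akita ethanol replicate 1 left 7 calls and leaving out replicate 2 left 6, and 1 call was made with all 40 libraries in one fit.

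Under MitoGamide, 21 of 84 members were higher in Akita than in WT mice and 0 lower (25%, against 14.3% of all 16674 genes tested, with 7.71% called higher). The median log2 fold change was 0.21 over the members and 0.01 over all genes tested. All 5 complexes held called members, with 9 of 37 in complex I, 1 of 4 in complex II (Sdhd), 3 of 9 in complex III (Uqcrq, Uqcr10 and Uqcrc1), 3 of 16 in complex IV (Cox6b1, Cox6b2 and Cox7b) and 5 of 17 in complex V (Atp5o, Atp5md, Atp5g1, Atp5d and Atp5h). The groups did not overlap for 24 members, all higher in Akita mice, against 12.8% of all genes tested. The count was 13 without Akita MitoGamide replicate 2, 8 without WT MitoGamide replicate 2, 33 with DESeq2 and 3 with all 40 libraries in one fit.

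Cox6b2 (ENSMUSG00000051811.14, chromosome 7, 4751792 to 4753094, minus strand, GRCm38), the testis isoform of subunit VIb of complex IV, had the largest fold change between genotypes of any member tested in each of the 4 treatments. Its level was 1.73, 1.30, 1.88, 1.22 and 2.17 CPM in WT mice on ethanol, and 2.73, 3.71, 4.10, 5.15 and 3.26 in Akita mice on ethanol. It was 1.02, 1.11, 1.30, 1.34 and 2.11 CPM in WT mice on MitoGamide, and 2.31, 3.06, 2.24, 2.74 and 3.64 in Akita mice on MitoGamide. In neither treatment did the genotypes overlap. On water it was 1.29, 1.94, 1.72, 1.38 and 1.35 CPM in WT mice, and 3.12, 2.74, 1.59, 2.80 and 2.64 in Akita mice. On MitoQ it was 0.782, 1.35, 0.433, 1.14 and 0.908 CPM in WT mice, and 2.52, 1.83, 2.39, 3.68 and 3.73 in Akita mice. On water 1 Akita library, replicate 3, fell among the WT values, and on MitoQ the genotypes did not overlap.

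The log2 fold change of Cox6b2 was 1.19 on ethanol (standard error 0.21, edgeR adjusted p = 0.0016), 1.02 (0.24, adjusted p = 0.0169) on MitoGamide, 0.74 (0.26, adjusted p = 0.394) on water and 1.54 (0.29, adjusted p = 0.0404) on MitoQ. These 4 comparisons share no library. With the 4 treatments in one fit it was 1.10 (0.12, adjusted p = 6.73e-09), and between 1.07 and 1.16 in the 40 fits that left out 1 library. It was 1.12 within the ethanol arm alone (adjusted p = 1.5e-05), 1.12 within the water arm alone (adjusted p = 0.00194) and 1.14 without the 6 libraries of high ribosomal RNA share. The call on MitoQ was lost when a library was left out in 8 of 10 cases (adjusted p up to 0.145), being kept without WT MitoQ replicate 3 or Akita MitoQ replicate 2, and had an adjusted p of 0.118 with the replicate block. Cox6b2 counts were low, between 2 and 113 per library. Its more abundant partner Cox6b1 was at a log2 fold change of 0.19 (0.09, adjusted p = 0.143) over the 4 treatments.

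**Figure D3:**
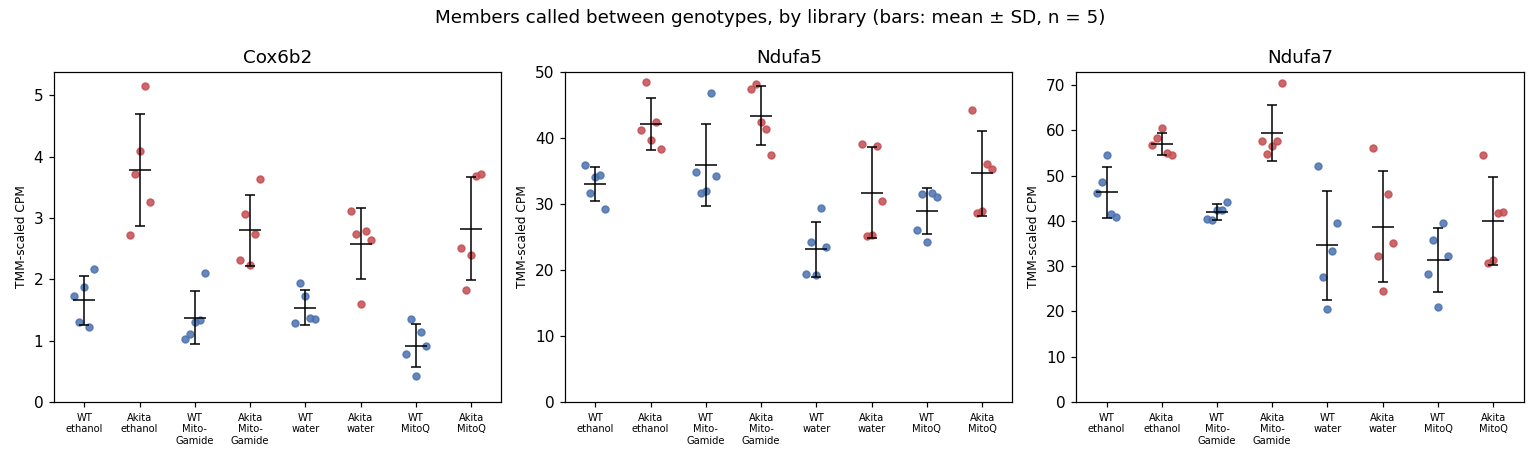
Level of Cox6b2, Ndufa5 and Ndufa7 (vertical axes, TMM-scaled CPM) in the 8 groups, with 1 point per library, WT in blue, Akita in red, and the mean ± SD of 5 libraries in black. For Cox6b2 the Akita libraries lie above the WT libraries in each treatment except for 1 library on water. The genotypes are apart for Ndufa5 on ethanol and for Ndufa7 on MitoGamide. They overlap for Ndufa5 on MitoGamide and for both genes in the water arm.

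Ndufa5 (chromosome 6, 24518666 to 24528013), an accessory subunit of the arm of complex I that extends into the matrix, was at 35.9, 31.8, 34.0, 34.4 and 29.2 CPM in WT mice on ethanol and 41.3, 48.6, 39.8, 42.5 and 38.4 in Akita mice on ethanol. All Akita values lay above all WT values there. On water it was at 19.4, 24.2, 19.3, 29.5 and 23.5 in WT mice and 39.2, 25.1, 25.3, 38.8 and 30.5 in Akita mice, and the groups overlapped. Its log2 fold change was 0.37 (standard error 0.07, edgeR adjusted p = 0.00485) on ethanol, 0.46 (0.18, adjusted p = 0.507) on water and 0.33 (0.07, adjusted p = 0.000175) over the 4 treatments.

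Ndufa7 (chromosome 17, 33824572 to 33838317), another accessory subunit of complex I, was at 40.5, 40.1, 42.5, 42.4 and 44.3 CPM in WT mice on MitoGamide and 57.6, 54.9, 56.5, 57.6 and 70.4 in Akita mice on MitoGamide. Uqcrq (chromosome 11, 53427922 to 53430831), a small subunit of complex III, was at 96.5, 95.2, 106.8, 113.7 and 104.8 CPM in WT mice and 149.9, 145.9, 132.4, 147.4 and 156.2 in Akita mice on MitoGamide. For both genes the genotypes were apart under MitoGamide. The log2 fold change there was 0.53 for each (standard errors 0.08 and 0.07, edgeR adjusted p = 0.00158 and 0.00132), and on ethanol it was 0.31 for Ndufa7 (adjusted p = 0.0141) and 0.21 for Uqcrq (adjusted p = 0.112). The difference of the genotype effect between MitoGamide and ethanol was 0.21 for Ndufa7 (0.11, edgeR adjusted p = 0.608) and 0.31 for Uqcrq (0.11, adjusted p = 0.585). Neither gene passed the test in the water arm, and there the genotypes overlapped. On water Ndufa7 was at 0.17 (0.28) and Uqcrq at 0.08 (0.18). On MitoQ they were at 0.34 (0.19, edgeR adjusted p = 0.703) and 0.22 (0.14, adjusted p = 0.751).

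Cox5b (chromosome 1, 36691449 to 36693681), a subunit on the matrix side of complex IV, was at 99.1, 93.0, 104.5, 91.5 and 78.8 CPM in WT mice on ethanol and 118.7, 135.7, 109.1, 105.8 and 108.2 in Akita mice on ethanol. Atp5g1 (chromosome 11, 96068852 to 96075670), 1 of the genes for subunit c of complex V, was at 116.1, 126.5, 125.5, 127.7 and 106.7 CPM in WT mice and 165.4, 171.6, 136.0, 136.0 and 137.7 in Akita mice on ethanol. For both genes all Akita values lay above all WT values. Their log2 fold changes on ethanol were 0.32 (standard error 0.09, edgeR adjusted p = 0.0207) for Cox5b and 0.33 (0.08, adjusted p = 0.017) for Atp5g1. On MitoGamide Atp5g1 was higher in Akita mice by 0.39 (0.09, adjusted p = 0.0181), and Cox5b was at 0.34 (0.11, adjusted p = 0.0533), with overlapping groups. In the water arm neither passed the test. Cox5b was at 0.23 (0.25, edgeR adjusted p = 1.00) on water and 0.26 (0.16, adjusted p = 0.729) on MitoQ, and Atp5g1 at 0.02 (0.24, adjusted p = 1.00) and 0.30 (0.17, adjusted p = 0.714).

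In the water arm the same comparison gave few calls. On water, 0 of 83 members were called by edgeR, against 0.552% of all 18304 genes tested, with 2 members (Cox6b2 and Ndufa5) and 7.56% of all genes at an unadjusted p under 0.05 and 0 members called by DESeq2. The median log2 fold change of the members was -0.02, and 37 of the 83 were higher in Akita mice. On MitoQ, 1 of 83 was called, Cox6b2, against 0.557% of all 18143 genes tested. There the members' median was 0.18 and 79 of the 83 were higher in Akita mice, but no member other than Cox6b2 had an unadjusted p under 0.05, against 9.06% of all genes. Without the libraries of high ribosomal RNA share the median was -0.03 on water and 0.09 on MitoQ, with 0 and 1 calls.

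Over the 4 treatments, 6 of 83 members were higher in Akita mice and 0 lower (7.23%), against 22.8% of all 17769 genes tested. The count depended on single libraries, with 14 calls without Akita water replicate 2 and 11 without WT water replicate 1. Besides Cox6b2, Ndufa5, Uqcrq (0.25, standard error 0.06) and Ndufa7 (0.33, 0.09) they were Cox5b of complex IV (0.28, 0.08) and Atp5g1 of complex V (0.25, 0.08). The members' median was 0.11, and 76 of 83 were higher in Akita mice. The member with the smallest p in complex II was Sdhd (0.22, 0.11, adjusted p = 0.169). Among the members with the highest level per length, Atp5b was at 0.03 (adjusted p = 0.924), Cox4i1 at 0.18 (0.412), Uqcr10 at 0.21 (0.172), Sdhb at 0.11 (0.566) and Ndufb9 at 0.24 (0.276). Cycs was at -0.18 (0.09, adjusted p = 0.173).

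The arms were also fitted apart. Within the 20 libraries of the ethanol arm, with treatment as a term, 39 of 84 members were higher in Akita mice and 0 lower (46.4%), against 31.2% of all genes tested. The median log2 fold change over all 84 members was 0.16. By complex the called members were 15 of 37 in complex I, 2 of 4 in complex II (Sdhd and Sdhb), 4 of 9 in complex III (Uqcrq, Cyc1, Uqcr10 and Uqcrc1), 11 of 16 in complex IV and 7 of 17 in complex V. Over all members tested in each complex, called or not, the medians were 0.14, 0.12, 0.18, 0.23 and 0.17. Within the 20 libraries of the water arm, 1 of 83 members was called, Cox6b2, against 4.31% of all genes tested, and the median was 0.10. Without the 6 libraries of high ribosomal RNA share, 16 of 83 members were called over the 4 treatments, all higher in Akita mice, against 26.5% of all 17759 genes tested in that fit, and the members' median was 0.11. Both arms, and the fit without the 6 libraries, were added after the data were examined. The test of the difference between vehicles (genotype x vehicle) called 0 of 83 members, against 0.0% of 18050 genes, with 0 members and 4.25% of all genes at an unadjusted p under 0.05 in edgeR and 0 members called by DESeq2.

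Cell type markers moved with genotype too. The summed level of the 8 proximal tubule markers was 19770 to 26690 CPM in WT and 12850 to 16150 in Akita mice on ethanol, and 23450 to 24970 and 9879 to 18160 on MitoGamide. Over the 4 treatments 4 of the 8 fell by the test, namely Kap, an androgen-dependent kidney transcript (-1.69), Lrp2 (-0.38), Slc34a1 (-0.29) and Miox (-0.26), and none rose. Slc5a2, the glucose cotransporter of the early proximal tubule, was at -0.02 and Slc22a8 at -0.01. The summed level gives most weight to the most abundant markers, whereas these fold changes differed widely between markers. How much of the fall of the sum came from Kap was not tested. The 3 distal convoluted tubule markers summed to 651.9 to 1149 CPM in WT and 1179 to 1363 in Akita mice on ethanol, and to 868.1 to 1011 and 1097 to 2353 on MitoGamide, without overlap in either, and 1 of the 3 was called, higher in Akita mice, in each of these comparisons. The 3 principal cell markers summed to 100.9 to 139.4 CPM in WT and 141.6 to 247.7 in Akita mice on MitoGamide, with 2 of the 3 called higher, whereas on ethanol the groups overlapped. Over the 4 treatments 2 of 3 podocyte markers were also called higher, 2 of 4 macrophage markers lower and 1 of 3 thick ascending limb markers lower. Their part in the members' levels was not tested.

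MitoGamide was compared with its vehicle in each genotype. In Akita mice, 4 of 84 members were higher with MitoGamide and 0 lower (4.76%), against 1.26% of all 17051 genes tested. At an unadjusted p under 0.05 in edgeR there were 18 members (21.4%) and 20.9% of all genes. The members' median log2 fold change was 0.02, and 49 of 84 were higher. The groups did not overlap for 8 members, all higher with MitoGamide, against 7.55% of all genes tested. The called members were Cycs, Ndufv2, Ndufb4 and Cox7b.

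Cycs (chromosome 6, 50562563 to 50566538), the mobile electron carrier between complexes III and IV, was at 65.8, 66.6, 44.6, 50.9 and 53.0 CPM in Akita mice on ethanol and 86.2, 86.8, 72.8, 89.8 and 81.1 on MitoGamide. In WT mice it was at 76.8, 76.3, 66.9, 62.3 and 61.8 on ethanol and 94.5, 63.5, 88.1, 95.5 and 86.4 on MitoGamide. The Akita groups did not overlap, and among the WT mice 1 MitoGamide library, replicate 2, fell among the ethanol values. The log2 fold change was 0.58 (standard error 0.11, edgeR adjusted p = 0.0407) in Akita and 0.31 (0.11, adjusted p = 0.339) in WT mice, and their difference was 0.26 (0.16, adjusted p = 0.663). Gm10053, the gene that shares the most sequence with Cycs, was at 0.02 (0.16) in Akita mice.

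Ndufv2 (chromosome 17, 66078638 to 66101559), an iron-sulphur subunit in the NADH-binding part of complex I, was at 138.9, 139.1, 123.6, 118.1 and 123.0 CPM in Akita mice on ethanol and 161.2, 161.1, 156.8, 171.0 and 210.1 on MitoGamide. In WT mice it was at 119.5, 135.5, 123.4, 118.6 and 110.2 on ethanol and 136.6, 121.2, 134.8, 142.9 and 147.1 on MitoGamide. The groups did not overlap in Akita mice and did in WT mice. The log2 fold change was 0.43 (0.09, adjusted p = 0.0426) and 0.17 (0.07, adjusted p = 0.438), with a difference of 0.26 (0.11, adjusted p = 0.593).

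Ndufb4 (chromosome 16, 37647170 to 37654453), an accessory membrane-arm subunit of complex I, was at 25.8, 27.6, 28.7, 28.6 and 24.1 CPM in Akita mice on ethanol and 33.2, 35.6, 31.1, 35.3 and 39.3 on MitoGamide. The groups did not overlap. Its log2 fold change was 0.38 (0.08, edgeR adjusted p = 0.0438), and that of its pseudogene Ndufb4c, with which it shares part of its sequence, was 0.40 (0.09, adjusted p = 0.052). Cox7b (chromosome X, 106015700 to 106022450), a small subunit of complex IV, was at 139.0, 145.9, 134.3, 124.2 and 118.9 CPM on ethanol and 167.3, 166.7, 164.9, 152.9 and 178.7 on MitoGamide, again with no overlap. Its log2 fold change was 0.33 (0.07, adjusted p = 0.0466).

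These 4 calls stood near the threshold. They became 0 to 2 when a library was left out in 9 of 10 cases (each Akita ethanol library and Akita MitoGamide replicates 1 to 4) and 6 without Akita MitoGamide replicate 5, 0 with the replicate block, 1 without a filter, 0 with all 40 libraries in one fit and 8 with DESeq2. The comparison uses the same Akita ethanol libraries as the comparison of genotypes on ethanol. The summed level of the 3 endothelial markers (Pecam1, Kdr and Emcn) was 147.3 to 188.2 CPM in Akita mice on ethanol and 198.1 to 290.7 on MitoGamide, and its part in the members' levels was not tested.

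**Figure D4:**
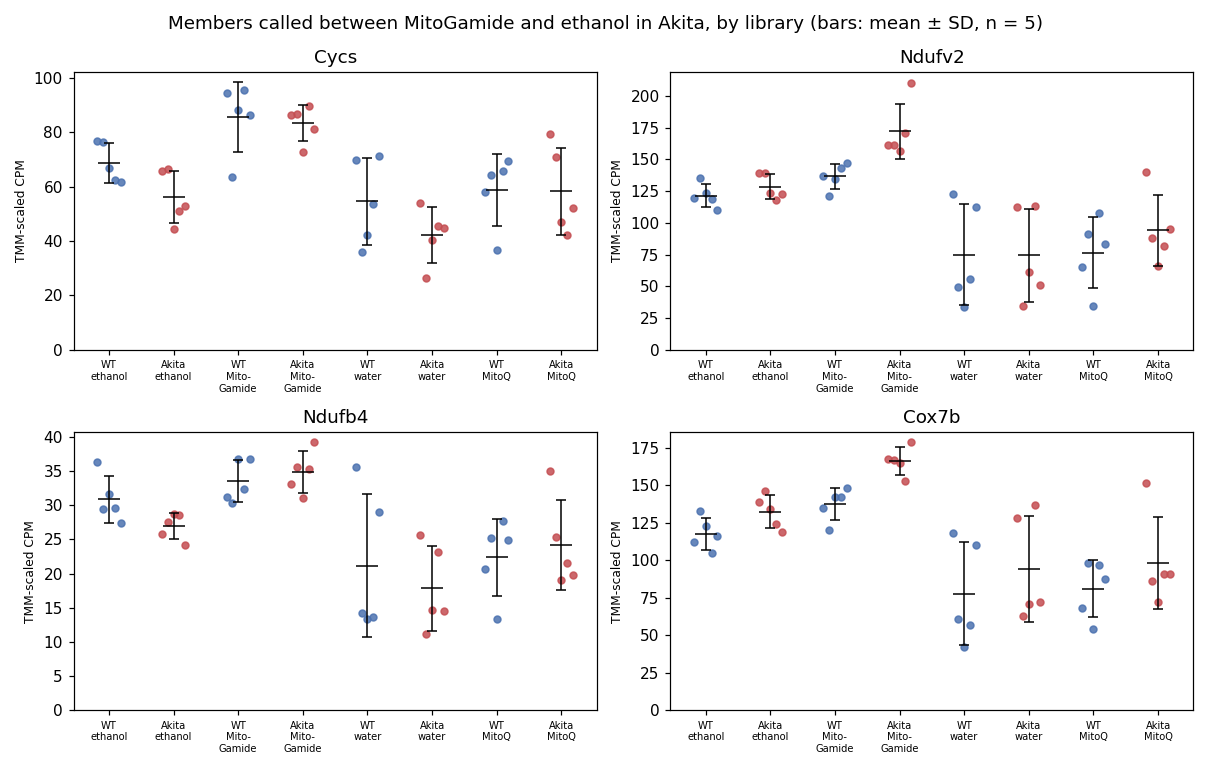
Level of Cycs, Ndufv2, Ndufb4 and Cox7b (vertical axes, TMM-scaled CPM) in the 8 groups, with 1 point per library, WT in blue, Akita in red, and the mean ± SD of 5 libraries in black. In Akita mice the 5 MitoGamide libraries lie above the 5 ethanol libraries for each of the 4 genes, for Cycs at 72.8 to 89.8 against 44.6 to 66.6.

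In WT mice, MitoGamide gave 0 calls among 84 members by edgeR, against 0.0% of all 17395 genes tested, with 14 members (16.7%) and 10.6% of all genes at an unadjusted p under 0.05 and 0 members called by DESeq2. The members' median was -0.08, and 21 of 84 were higher with MitoGamide. Of the 14, Cycs (0.31), Cox7b (0.22), Ndufv2 (0.17) and Uqcrb (0.13) were higher and the other 10 lower, among them Ndufs7 (-0.24), Cox8a (-0.23) and Cyc1 (-0.19). Testing whether MitoGamide acted differently in the genotypes (genotype x MitoGamide) called 0 of 84 members, against 0.0% of 17256 genes, with 8 members (9.52%) and 8.32% of all genes at an unadjusted p under 0.05 and 0 members called by DESeq2.

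MitoQ was compared with water in each genotype. In Akita mice 0 of 83 members were called, against 0.0% of 18496 genes, with 0 members and 1.96% of all genes at an unadjusted p under 0.05 and 0 members called by DESeq2, and the median was 0.10. In WT mice 0 of 83 were called, against 0.0% of 17881 genes, with 2 members and 3.22% of all genes at an unadjusted p under 0.05 and 0 members called by DESeq2, and the median was -0.11. Without the libraries of high ribosomal RNA share the medians were -0.08 and -0.19, with 0 calls among the members in both genotypes. The test of the difference between genotypes (genotype x MitoQ) called 0 of 83, against 0.0% of 18225 genes, with 1 member and 1.14% of all genes at an unadjusted p under 0.05 and 0 members called by DESeq2. Cycs was at 0.47 in Akita mice and 0.11 in WT mice, without a call in either.

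The ethanol and water vehicles were compared last, with the same vehicle libraries as in the comparisons above, and the members' medians were farthest from 0 here. In Akita mice all 83 members tested were higher on ethanol, 76 at an unadjusted p under 0.05 (91.6%, against 39.7% of all genes) and 14 past the threshold (16.9%), against 12.7% of all 17928 genes tested, of which 3.66% were called higher. The members' median log2 fold change was 0.58 and that of all genes tested -0.02. Called members were in complex I (Ndufs7, Ndufc2, Ndufb4c, Ndufa11, Ndufab1, Ndufa8 and Ndufs8), complex III (Uqcrq, Uqcr10, Cyc1 and Uqcrfs1), complex IV (Cox8a) and complex V (Atp5d and Atp5l), with log2 fold changes between 0.45 and 0.91. Ndufb4, in which all words of the pseudogene Ndufb4c also occur, was at 0.60 (edgeR adjusted p = 0.0604). In WT mice 83 of 84 members were higher on ethanol with a median of 0.51, but 0 were called by edgeR, against 0.0% of 18092 genes, with 33 members (39.3%) and 27.4% of all genes at an unadjusted p under 0.05. DESeq2 called 2 of the members and 725 genes in all. The groups did not overlap for 20 members in Akita mice, against 10.6% of all genes tested, and for 9 in WT mice, against 3.61%.

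The medians by complex were, in Akita mice, 0.58 for complex I, 0.63 for complex II, 0.53 for complex III, 0.63 for complex IV and 0.56 for complex V, and in WT mice 0.53, 0.53, 0.45, 0.49 and 0.52. Other transcripts moved with the members. The 81 cytosolic ribosomal protein genes had a median of 0.59 in Akita and 0.60 in WT mice. The olfactory receptor genes, which are not known for a role in the respiratory chain, had medians of -0.88 and -0.67. In Akita mice 72 of 175 olfactory receptor genes were called lower on ethanol, against 9.07% of all genes tested. The distal convoluted tubule markers summed to 1179 to 1363 CPM on ethanol and 1609 to 2001 on water in Akita mice, without overlap, and of the 3 genes 1 was called higher and 1 lower on ethanol. The share of counts on ribosomal RNA genes was over 30% in WT water replicates 3 and 4 and Akita water replicates 2 and 5. It was below 30% in the ethanol libraries, and the part of all these values in the result was not tested. Without the 6 libraries of high ribosomal RNA share the members' medians were 0.35 and 0.24, with 0 calls in both genotypes. In Akita mice the count was also 77 without Akita water replicate 1, 68 without replicate 4, 1 without replicate 2, and 0 without replicate 3 or 5 or any Akita ethanol replicate but replicate 4 (6 calls). With all libraries it was 54 with DESeq2, 8 without a filter and 0 with the replicate block. In WT mice it was 35 without WT water replicate 5. Whether the libraries of the ethanol and water arms were prepared together was not given in the sources used here, and a difference in preparation between the arms cannot be told apart from the vehicle.

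**Figure D5:**
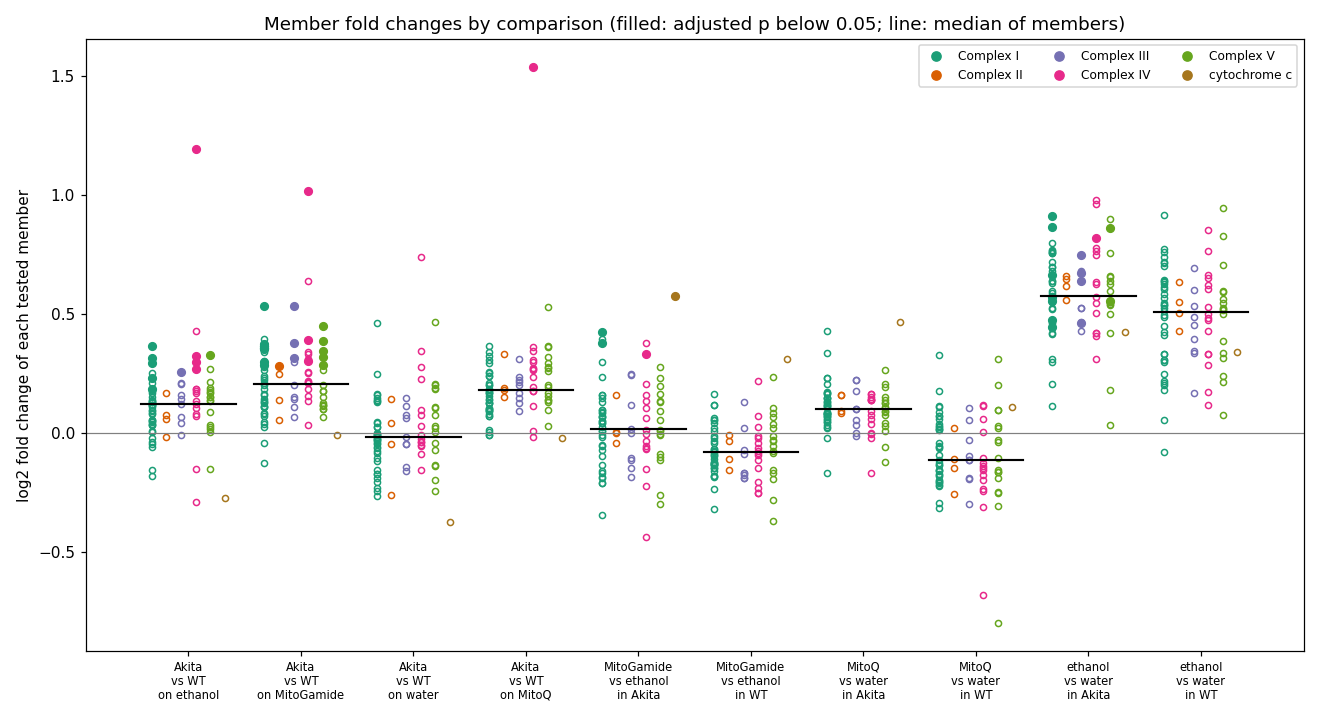
Log2 fold change (vertical axis) of each tested member in 10 comparisons (horizontal axis), coloured by complex, with filled circles where edgeR's adjusted p was below 0.05 and a line at the members' median. Medians lie near 0.12 and 0.21 for diabetes in the ethanol arm and at 0.58 and 0.51 for ethanol against water, and Cox6b2 of complex IV is the highest point in all 4 comparisons of genotypes.

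Genes around the subunits were described from lists. Of 45 assembly factors tested, which build the complexes without staying in them, 3 were called higher and 3 lower in Akita mice over the 4 treatments, against 22.8% of all genes tested, with a median of -0.03. Those higher were Uqcc2 (0.33), Uqcc3 (0.25) and Ttc19 (0.14), all for complex III, and those lower were Cox15 (-0.31), which makes haem A for complex IV, Ndufaf1 (-0.24) and Acad9 (-0.21), both for complex I. The 13 subunits encoded in mitochondrial DNA had a median of 0.10 and 0 calls. With MitoGamide they had a median of 0.35 in Akita and 0.49 in WT mice, again with 0 calls. Their summed level on MitoGamide was 53480 to 96910 CPM in Akita (median 58010) and 52310 to 80030 in WT mice (median 58480). On ethanol it was 47780 to 54130 (median 52480) and 43760 to 53880 (median 50220), so the groups overlapped in both genotypes. Of the 45 assembly factors, 0 were called with MitoGamide in either genotype. Of all genes tested, 1.26% were called in Akita and 0.0% in WT mice.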

How the data were processed

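RNA from the renal cortex of 40 mice was depleted of ribosomal RNA and sequenced with a directional kit. Per the labels and the study's methods, the authors trimmed reads with Skewer, quantified transcripts with kallisto 0.46.1 against GENCODE mouse transcripts (GRCm38) and summed them per gene in R 4.0.2. As deposited, each value is an estimated count with no decimals, and whether strand was used in counting was not given in the sources used here. They were tested with edgeR 4.0.16 in R 4.3.3 (TMM scaling, mean of at least 10 counts over the libraries fitted, quasi-likelihood F-test, Benjamini-Hochberg adjustment over all genes tested, adjusted p below 0.05). Each pair of groups was fitted on its own 10 libraries. The genotype fit over 4 treatments used all 40 with treatment as a term, and the interactions used the 20 libraries of their 4 groups. Standard errors are the log2 fold change over the square root of F.

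The members and gene lists were chosen with earlier results of these data known, and motif letters after the promoter windows were seen. By the rule for named genes, each comparison names the called members, at most the 10 with the smallest p, each complex names the member with the smallest p and the one with the highest level, and isoform partners, the Sdh genes, Cyc1 and Cycs are named throughout. Other members in the text, such as called ones past the 10, were named after their values were seen. Lists also covered cell types whose values are not printed here. Totals ranged from 9106654 to 24321424 counts per library. Replicates were single animals, and p-values measure the spread between them. No 2 libraries of a group agreed within sampling noise (lowest chi-square per degree of freedom 8.88). Replicate numbers were not stated to pair animals. Alternatives were RLE size factors, no filter, a replicate block, DESeq2 1.42.0, all 40 libraries in one fit, pseudogenes added and each library left out. On simulated counts for diabetes on ethanol the test recovered 50% of genes changed 1.5-fold and 70% of those changed 2-fold, with 4 false calls among 17747 genes. Over 4 treatments it recovered 74% and 99%, for diabetes on MitoQ 1% and 40%, for ethanol against water in Akita mice 10% and 52%, and for genotype x MitoGamide 21% and 51%. The changed genes were drawn from all genes tested, and each gene was simulated independently. These rates are therefore not the rates for the members, and shifts that many genes share within a library were not simulated. Sequences are from RefSeq (GRCm38.p6) and positions from GENCODE mouse release 21, which held 99.5% of the identifiers.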

Additional observations from a re-analysis of the deposited data

Results flagged for a closer look

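Among 120 groups of 5 libraries examined for a library far from the other 4, 7 held one, and chance flags about 1 in 20 groups. In Akita mice on MitoGamide, replicate 1 had the lowest summed level of complex II (914.6 CPM) and of complex V (4531 CPM), and replicate 5 had the highest level of Ndufa7 (70.4 CPM) and of Ndufv2 (210.1 CPM). Akita MitoQ replicate 1 had the highest Cox7b (151.5 CPM), WT MitoGamide replicate 4 the highest Ndufa5 (46.78 CPM) and WT MitoGamide replicate 2 the lowest Cycs (63.51 CPM). In each case the gap to the nearest library was over 0.71 of the range of the group.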

How the results depend on the processing

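The members' median log2 fold changes moved by less than 1 SD between libraries under all 171 alternatives run, but this SD was as wide as 0.514 (diabetes on water), and without the libraries of over 30% ribosomal RNA ethanol against water went from 0.58 to 0.35 in Akita and 0.51 to 0.24 in WT mice and MitoQ in Akita mice from 0.10 to -0.08. None of the 57 called values changed sign. Without a filter 18 of the 57 lost their call, with the replicate block 23, and with DESeq2 or RLE size factors none. Leaving out 1 library ended the call in 216 of 750 fits. Counts of called members were less stable. Diabetes on ethanol gave 1 with all 40 libraries in one fit and 6 to 15 with 1 library left out. Under MitoGamide it gave 33 with DESeq2, 3 with all 40 libraries and 8 to 31 with 1 left out, and under MitoQ 0 with the replicate block and 0 to 1 with 1 left out. MitoGamide in Akita mice gave 1 without a filter, 0 with the replicate block, 8 with DESeq2, 0 with all 40 libraries and 0 to 6 with 1 left out. Ethanol against water in Akita mice gave 8 without a filter, 0 with the replicate block, 54 with DESeq2, 24 with all 40 libraries, 0 without the libraries of over 30% ribosomal RNA and 0 to 77 with 1 left out. In WT mice it gave 2 with DESeq2, 8 with all 40 libraries and 0 to 35 with 1 left out. Genotype over 4 treatments gave 16 without those libraries, 39 in the ethanol arm, 1 in the water arm, 6 with the replicate block and 6 to 14 with 1 left out (14 without Akita water replicate 2, 11 without WT water replicate 1). The cause of these changes was not tested. Samples of the same number did not deviate together in every pair of any comparison (r from -0.451 to 0.655), so the replicate block is given only as an alternative.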
